A study of Mus musculus with 24 samples.

Results

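The genes examined were 10 transcriptional targets of p53 that act in apoptosis: Bax, Bbc3, Pmaip1, Fas, Tnfrsf10b, Apaf1, Aen, Perp, Phlda3 and Eda2r. They were chosen by symbol, and all 10 were found by Ensembl identifier among the 49315 genes of the count tables and passed the filter on low counts in every comparison. The 24 libraries came from primary cortical astrocytes of C57BL/6J wildtype mouse embryos, X-irradiated with 0, 0.1 or 2 Gy and lysed 6 h or 24 h later, with 4 biological repeats of each dose and time. The 0 Gy group is the mock-irradiated control, which received no X-rays. Cortical cells of the embryos of a pregnant mouse were pooled, and per the study fresh cells were prepared for every experiment, so a library does not stand for a single animal, and no group carries a transgene or a drug. Libraries with the same repeat number at the same time are called a pair, and the doses within a time share the same mock libraries.

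p53 is a transcription factor that is stabilised after DNA double strand breaks and then raises the transcription of genes for cell cycle arrest, DNA repair and apoptosis. Its apoptosis targets act on both routes to caspases: death receptors at the cell surface, and the mitochondrial route, in which BH3-only proteins free Bax to open the outer mitochondrial membrane and Apaf1 assembles the apoptosome around released cytochrome c. Astrocytes are generally regarded as resistant to apoptosis after irradiation, and many of these genes are also expressed at a basal level in unstressed cells.

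p53 binds a pair of 10-base half-sites. Promoter windows from RefSeq (GRCm38.p6, 250 bases before to 50 bases after a start site, read in the direction of the gene) were at hand for 7 of the 10 members, as 10 windows, and those of Pmaip1, Tnfrsf10b and Perp were not analysed here. The search for the p53 consensus half-site covered both strands, since the half-site motif reads the same on either. A full element, here 2 half-sites with intact cores, a spacer of 0 to 13 bases and at most 3 mismatches, was found for Bax, Bbc3 and Aen, the members whose windows are printed. Across all 32851 windows of that length 6.72% held such an element and 8.36% held an exact half-site. The Bax window (chr7:45466849-45467148, minus strand) held 3 full elements. Of these, 2 with 2 mismatches each share an exact half-site 201 bases before the start and have spacers of 5 and 1 bases, and the other, with 3 mismatches and a spacer of 11 bases, begins 5 bases before the start. The first Bbc3 window (chr7:16309333-16309632, plus strand) held a full element with 3 mismatches and no spacer, 97 bases before the start. The Aen window (chr7:78895677-78895976, plus strand) held an exact half-site 10 bases after the start and a full element with 3 mismatches, and the same letters lie 121 bases before the second Aen start. A match of letters is a description of the window, and no match in the windows of Apaf1, Eda2r, Fas and Phlda3 says only that these letters are not within them. Capitals mark the half-sites of every full element found:
Bax: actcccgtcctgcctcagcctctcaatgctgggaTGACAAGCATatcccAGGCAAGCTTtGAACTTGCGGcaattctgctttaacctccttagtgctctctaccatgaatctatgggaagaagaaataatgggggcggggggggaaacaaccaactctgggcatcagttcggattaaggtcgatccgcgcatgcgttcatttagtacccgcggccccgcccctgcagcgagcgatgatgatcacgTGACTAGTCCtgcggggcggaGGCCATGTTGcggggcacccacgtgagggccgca
Bbc3: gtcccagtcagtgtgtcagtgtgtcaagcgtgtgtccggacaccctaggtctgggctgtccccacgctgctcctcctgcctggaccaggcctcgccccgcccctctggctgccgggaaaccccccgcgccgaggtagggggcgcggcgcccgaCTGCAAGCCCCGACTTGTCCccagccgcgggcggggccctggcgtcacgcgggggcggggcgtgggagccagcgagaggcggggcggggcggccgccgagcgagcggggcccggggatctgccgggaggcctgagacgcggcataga
Aen: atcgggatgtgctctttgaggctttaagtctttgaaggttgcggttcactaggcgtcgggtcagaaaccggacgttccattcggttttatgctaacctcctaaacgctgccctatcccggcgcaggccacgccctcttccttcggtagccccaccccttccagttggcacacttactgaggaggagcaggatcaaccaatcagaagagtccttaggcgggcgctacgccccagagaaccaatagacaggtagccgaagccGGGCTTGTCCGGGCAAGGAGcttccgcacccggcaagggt

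Library sizes lay between 14742855 and 38194800 counts. The 36 pairings of libraries of one group differed by far more than counting error, with a chi-square per degree of freedom of at least 28.3, so none was counted as a repeat deposit. Astrocyte markers were present in every library, with a summed level of 2950 to 3984 CPM (counts scaled to library size) over 12 genes, and 0 of the 12 were at 0 in all libraries. The libraries of replicate 2 stood apart. Microglia markers summed to 222 to 266 CPM in them and to 1462 to 2471 CPM in the other replicates. Neuron markers summed to 597 to 728 CPM against 404 to 581 CPM. The median sum of astrocyte markers was lowest in replicate 2, at 3148 CPM against 3359 to 3866 CPM. That of oligodendrocyte lineage markers was highest there, at 823 CPM against 479 to 591 CPM. Fibroblast and vessel markers summed to 3470 to 7797 CPM over 10 genes, 0 of them at 0 in all libraries and 2 under 1 CPM throughout, and most of that sum was the smooth muscle actin gene Acta2, with a mean of 4401 CPM in mock at 24 h, where Col1a1 had 394 CPM, Dcn 0.943 CPM and Pecam1 0.576 CPM. This sum was highest in replicate 3, with 5781 to 7797 CPM and a median of 6656 CPM, against medians of 5252, 4609 and 4427 CPM in replicates 1, 2 and 4. In such bulk samples fewer cells of a type and less RNA per cell cannot be told apart.

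In mock-irradiated cells the members covered a wide range of levels. Per kilobase of exon, the scale on which genes can be compared, Phlda3, an inhibitor of the kinase Akt, was highest, with 84.5 ± 22.7 CPM per kilobase (SD, n = 8 mock libraries of both times). Bax, the pore-forming effector of the mitochondrial route, followed with 64.9 ± 20.7, and the death receptor gene Fas with 53.3 ± 8.75. These 3 overlapped with each other, whereas every mock library of Fas lay above every mock library of the next gene. Next came Pmaip1, which codes for the BH3-only protein Noxa, with 18.5 ± 12.5 CPM per kilobase, the TRAIL receptor gene Tnfrsf10b with 17.3 ± 6.83 and the nuclease gene Aen with 17.1 ± 4.02, which overlapped. The lowest levels were those of Eda2r, a receptor for ectodysplasin A2, with 9.68 ± 5.85 CPM per kilobase, of Bbc3, which codes for the BH3-only protein Puma, with 7.75 ± 2.80, of Perp, a membrane protein gene, with 5.87 ± 7.19, and of Apaf1 with 5.53 ± 1.97. Neighbours among these 4 overlapped as well, and Eda2r overlapped Aen, so that the gap between Fas and Pmaip1 was the 1 break between neighbours in this order.

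The ligands of the receptors were low. Fasl, the ligand of Fas, had 0 to 5 counts per library and 0 counts in all 4 libraries at 2 Gy and 24 h. Tnfsf10, which codes for TRAIL, had 1 to 100 counts, with group means of 0.439 to 1.61 CPM, and Eda had 52 to 203 counts, with group means of 2.92 to 5.30 CPM. Fas, Tnfrsf10b and Eda2r themselves had at least 470 counts in each library.

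**Figure D1:**
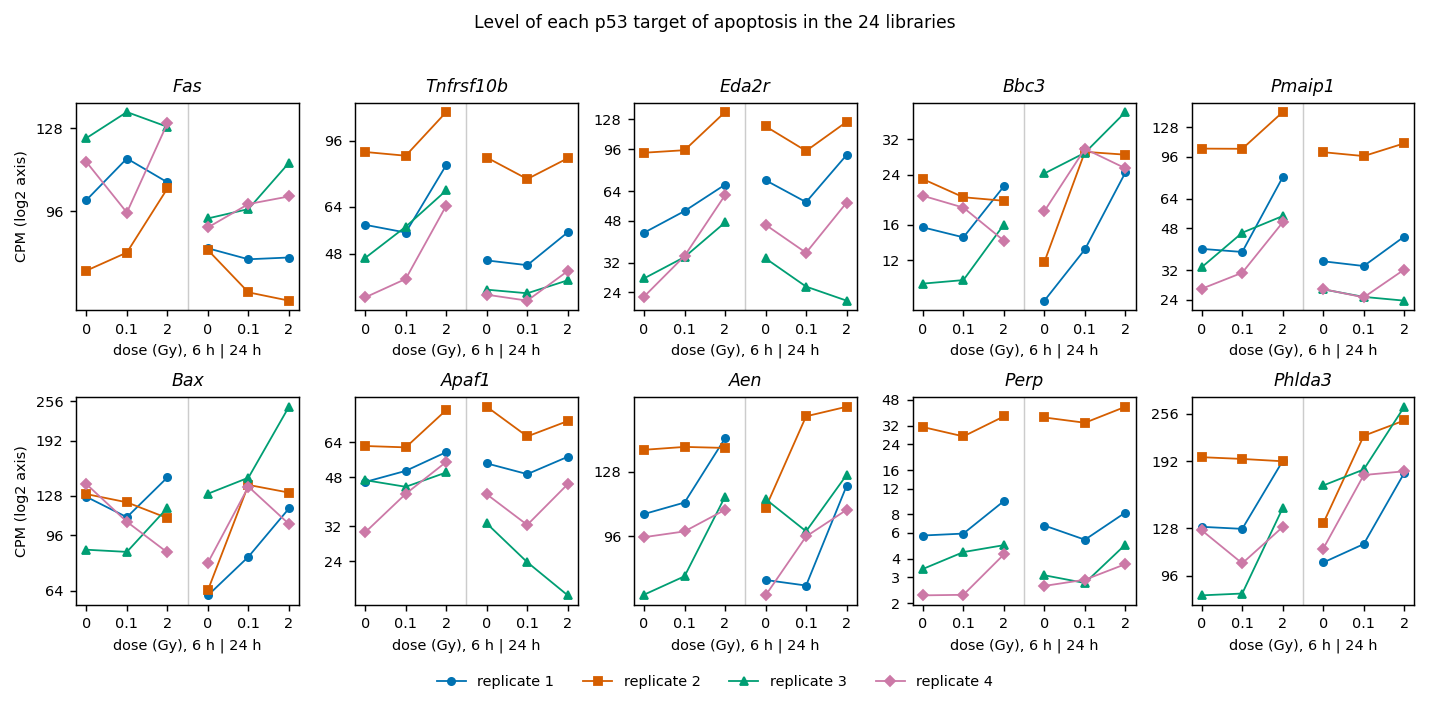
Level of each member in each of the 24 libraries, in CPM on a log2 axis, against dose at 6 h and at 24 h; lines join libraries with the same replicate number within a time, and colour and marker give that number. Perp, Pmaip1, Eda2r, Tnfrsf10b and Apaf1 are highest in replicate 2 in all 6 groups, while Fas is lowest there.

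The spread between repeats was wide. The ratio of the highest to the lowest mock library over both times was 1.58 for Fas, 1.91 for Aen, between 2.26 and 5.20 for 7 other members and 16.2 for Perp. Perp reached 27.1 to 43.1 CPM in replicate 2 and 2.25 to 9.86 CPM in the other replicates, without overlap. Pmaip1, Apaf1 and Eda2r also lay above all other libraries in replicate 2, whose median was 3.13, 1.57 and 2.41 times that of the rest, respectively. Tnfrsf10b was highest in replicate 2 in 6 of 6 groups, with a median 1.92 times that of the rest, although the libraries overlapped between groups. Fas was lowest in replicate 2 in 6 of 6 groups. Replicate number took up 36.7 to 94.7% of the variance of the members' log2 levels at 6 h and 37.0 to 97.4% at 24 h. Replicate 2 is also the one with the low microglia marker sum; the part of cell composition in these levels was not tested.

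Same-numbered libraries within a time deviated together, and each dose comparison was fitted both unpaired and with replicate number as a blocking factor. Without the block, 0 members and 0 genes had an adjusted p under 0.05, the threshold for a call, in any dose comparison with edgeR's quasi-likelihood test (0% of the genes tested in each). At an unadjusted p under 0.05, 215 genes were counted for 2 Gy at 6 h, 570 for 2 Gy at 24 h, 24 for 0.1 Gy at 6 h and 241 for 0.1 Gy at 24 h. Values given for members are from the blocked fit unless stated otherwise.

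At 6 h after 2 Gy, Eda2r, Pmaip1 and Tnfrsf10b were the members with the largest estimates, at 1.80, 1.72 and 1.49 times their mock levels, and 9 of the 10 estimates were above 0. None of them passed the adjusted p in the blocked edgeR fit, in which 0 of 15994 genes did (0%). The median over the members was 0.38 on the log2 scale, against 0.00 over all genes tested. At an unadjusted p under 0.05, 8 of the 10 members were higher, while 3.55% of all genes were higher by that rule. In the pairs, 7 of the 10 members were higher in 4 of 4 pairs, as were 8.77% of all genes. The 2 groups of 4 libraries overlapped for each of the 10 members, whereas 0.463% of all genes did not overlap and were higher.

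Among the receptors, Eda2r had 42.7, 92.7, 27.5 and 23.0 CPM in the mock libraries of replicates 1 to 4 and 68.0, 137, 47.2 and 61.5 CPM after 2 Gy at 6 h. Each irradiated library lay above its own mock library, and the groups overlapped, with replicate 2 high at both doses. The log2 fold change was 0.85 ± 0.134 (SE, edgeR adjusted p = 0.141). Tnfrsf10b, the receptor for TRAIL, had 57.3, 89.6, 46.7 and 36.7 CPM in mock and 82.7, 115, 70.8 and 64.4 CPM after 2 Gy, again higher in each pair, with a log2 fold change of 0.57 ± 0.0913 (edgeR adjusted p = 0.141). Fas differed little, with 99.7, 78.0, 124 and 114 CPM in mock and 106, 104, 129 and 130.2 CPM after 2 Gy, although it too was higher in 4 of 4 pairs. Its log2 fold change was 0.19 ± 0.0818 (edgeR adjusted p = 0.682).

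Of the BH3-only genes, which sense stress upstream of Bax, Pmaip1 was among the members with the largest estimates at 6 h. Bbc3 was near mock in the blocked fit. Pmaip1 had 39.4, 104, 33.0 and 26.8 CPM in mock and 78.9, 148, 54.1 and 50.9 CPM after 2 Gy, higher in each pair, and its log2 fold change was 0.78 ± 0.0986 (edgeR adjusted p = 0.141). Bbc3 had 15.7, 23.2, 9.92 and 20.2 CPM in mock and 21.9, 19.4, 16 and 14.1 CPM after 2 Gy. It was higher in pairs 1 and 3 and lower in pairs 2 and 4, and its interval for the log2 fold change ran from -0.29 to 0.48. Bax showed the same division, with 127, 129.8, 86.4 and 139.6 CPM in mock and 147, 109, 117 and 84.7 CPM after 2 Gy. Its log2 fold change was -0.08 ± 0.171, with a 95% interval of -0.41 to 0.26.

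Of the remaining members at 6 h, Apaf1 had a log2 fold change of 0.42 ± 0.114 and Perp of 0.56 ± 0.137, both higher in 4 of 4 pairs. Aen, an exonuclease gene, differed by 0.33 ± 0.111 and was higher in 4 of 4 pairs, with 106, 141, 74.0 and 95.7 CPM in mock and 149, 142, 115 and 108 CPM after 2 Gy. For Phlda3 the difference was 0.33 ± 0.140, with values of 129, 197, 85.3 and 127 CPM in mock and 193, 192, 145 and 129 CPM after 2 Gy. Aen, Perp, Apaf1 and Phlda3 thus had edgeR adjusted p-values of 0.669, 0.370, 0.498 and 0.682, none past the threshold. Beside these values, the oligodendrocyte lineage marker sum was higher in 1 of 4 pairs at 6 h after 2 Gy, with a mean difference of -0.13 log2 units. The mean differences of the other marker sums ran from -0.03 (microglia) to 0.05 (astrocyte). Their part in the members' levels was not tested.

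Which members passed at 6 h differed between blocked fits. Like edgeR, voom with the block called 0 members, and so did the blocked edgeR fits without replicate 1, 2 or 3 (0% of all genes in each). DESeq2 with the block called Pmaip1, Tnfrsf10b and Eda2r, against 0.414% of the genes it tested that were called and higher. One edgeR fit of all 24 libraries with the block called the same 3 (0.369% of all genes), and so did the blocked edgeR fit without replicate 4, in which 129 genes passed (0.799%). After a correction for GC content and length in the blocked fit, 5 members passed and were higher, against 0.581% of all genes: Eda2r by 0.72 ± 0.0880 (adjusted p = 0.00929), Pmaip1 by 0.70 ± 0.0871 (0.0102), Tnfrsf10b by 0.56 ± 0.0776 (0.0120), Phlda3 by 0.51 ± 0.0799 (0.0249) and Apaf1 by 0.36 ± 0.0651 (0.0417). Over all 26 settings the edgeR, DESeq2 or limma adjusted p ran from 2.31e-06 to 1.00 for Eda2r, from 1.02e-07 to 1.00 for Pmaip1 and from 0.000425 to 1.00 for Tnfrsf10b.

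**Figure D2:**
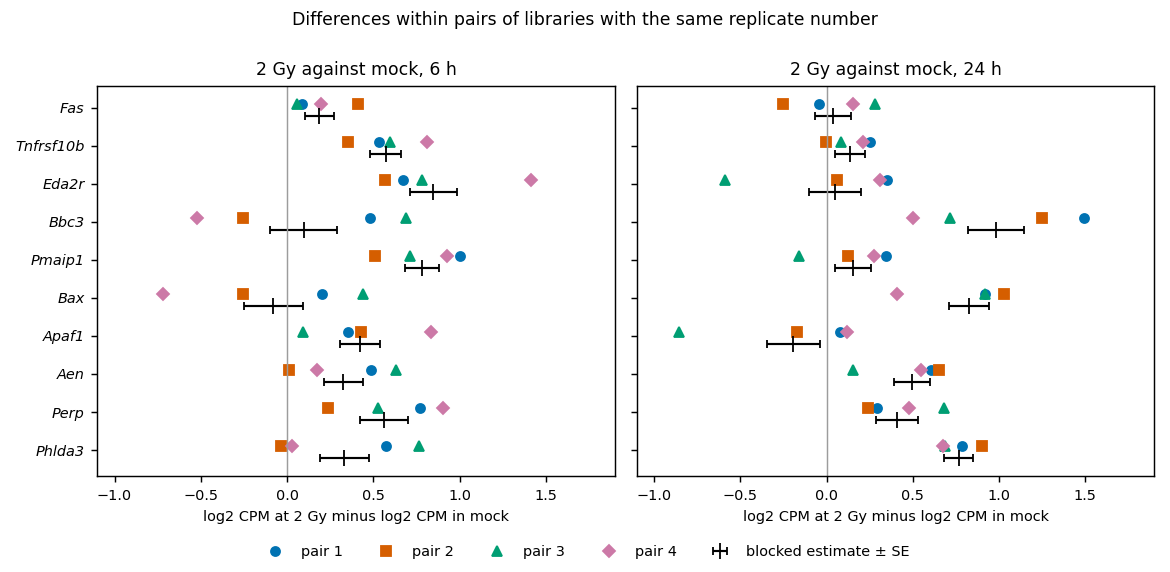
Difference in log2 CPM between the 2 Gy and the mock library of each pair (coloured markers) for the 10 members at 6 h (left) and 24 h (right), with the blocked edgeR estimate and its standard error in black. Pmaip1, Tnfrsf10b and Eda2r lie above 0 in all pairs at 6 h, and Bbc3, Bax and Phlda3 do so at 24 h.

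At 24 h after 2 Gy, Bbc3, Bax, Phlda3 and Aen rose in the blocked fit, to 1.97, 1.77, 1.70 and 1.41 times mock, respectively. They were 4 of 10 members, while 6.53% of all 15892 genes tested were called and higher. No member was called lower, while 6.69% of all genes were. Bbc3, Bax, Phlda3, Aen and Perp were higher in 4 of 4 pairs, as were 20% of all genes, and the median log2 fold change over the members was 0.28, against 0.00 over all genes.

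Bax had 61.8, 64.2, 130.1 and 78.6 CPM in the mock libraries at 24 h and 117, 131, 246 and 104 CPM after 2 Gy. Its irradiated level was higher in each pair, but the groups overlapped, with replicate 3 high at both doses. The log2 fold change was 0.82 ± 0.116 (edgeR adjusted p = 0.00741). Bbc3 had 8.64, 11.8, 24.3 and 17.9 CPM in mock and 24.5, 28.2, 39.9 and 25.3 CPM after 2 Gy, and it rose by 0.98 ± 0.164 (adjusted p = 0.0128). Phlda3 had 104, 132, 166 and 113 CPM in mock and 179, 246, 267 and 181 CPM after 2 Gy, and it rose by 0.77 ± 0.0862 (adjusted p = 0.00284). Bbc3 and Phlda3 were the 2 members whose irradiated libraries all lay above all mock libraries, which held for 0.944% of all genes. Without the block, the log2 fold change of Phlda3 was 0.77 ± 0.204 with an edgeR adjusted p of 0.60, the lowest among the members.

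Aen had 79.0, 109, 113 and 73.8 CPM in mock and 120.3, 171, 126 and 108 CPM after 2 Gy at 24 h, and it rose by 0.49 ± 0.105 (edgeR adjusted p = 0.0234). Perp, with 6.72, 36.5, 3.09 and 2.61 CPM in mock and 8.24, 43.1, 5.0 and 3.68 CPM after 2 Gy, differed by 0.41 ± 0.122 and missed the threshold (adjusted p = 0.0572). All 4 pairs of both genes pointed upward.

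The members with the largest estimates at 6 h were close to mock at 24 h. Pmaip1 had 34.9, 100.4, 26.6 and 26.7 CPM in mock and 44.4, 109, 23.8 and 32.2 CPM after 2 Gy, and its 95% interval for the log2 fold change was -0.05 to 0.36. For Tnfrsf10b the interval was -0.04 to 0.31 and for Eda2r -0.25 to 0.34. Eda2r was lower in pair 3 and higher in pairs 1, 2 and 4. Fas differed by 0.04 ± 0.105 and Apaf1 by -0.19 ± 0.153, the latter with 18.1 CPM after 2 Gy against 32.7 CPM in mock in replicate 3.

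The calls at 24 h varied with the pairs in the fit. Without replicate 1, Bax and Phlda3 were called (0.892% of all genes), without replicate 2 only Phlda3 (0.432%), and without replicate 4 Bax, Bbc3 and Phlda3 (1.54%). Without replicate 3, 7 members were called, namely Bax, Bbc3 and Phlda3 with Aen, Perp, Pmaip1 and Eda2r, when 33.1% of all genes were. Over all 26 settings the adjusted p ran from 4.45e-08 to 1.00 for Bax, from 1.64e-06 to 1.00 for Bbc3, from 1.10e-09 to 1.00 for Phlda3 and from 5.88e-06 to 1.00 for Aen. Beside these changes, the oligodendrocyte lineage marker sum was higher in 4 of 4 pairs at 24 h after 2 Gy, by 0.30 log2 units on average, with sums of 453 to 639 CPM in mock and 489 to 897 CPM after 2 Gy, and the microglia sum in 4 of 4 pairs by 0.13, while the fibroblast and vessel sum was lower in 3 of 4 pairs, with a mean difference of -0.13. The oligodendrocyte and microglia lists hold 10 genes each, 0 of them at 0 in all libraries, and 1 gene of the oligodendrocyte lineage was under 1 CPM throughout. Their part in the members' changes was not tested.

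The fold changes at 24 h moved with the base composition of the genes. In the blocked fits of 2 Gy, log2 fold change and GC content had a Pearson r of 0.56 over 15855 genes at 24 h and of -0.37 over 15959 genes at 6 h, as a description across genes, which are not independent replicates. The median fold change of the 10% of genes richest in GC was 0.30 at 24 h, and that of the poorest 10% was -0.31. Among the genes that passed the filter over all 24 libraries, Bbc3 (65.2% GC), Bax (63.5%) and Phlda3 (62.6%) lie at percentiles 99.4, 99.0 and 98.5. Eda2r (40.9%) and Pmaip1 (42.1%) lie at 9.31 and 13.4. Over the 10 members the same r was 0.92 at 24 h and -0.76 at 6 h.

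With the correction for GC content and length, the 24 h estimates of the GC-rich members shrank and those of the GC-poor members grew. Bax rose by 0.40 ± 0.0827 (edgeR adjusted p = 0.0381), Bbc3 by 0.56 ± 0.123 (0.0467) and Phlda3 by 0.35 ± 0.0673 (0.0273). Aen, which has 51.6% GC, was hardly altered, at 0.49 ± 0.0757 (0.0132). The same 4 members were called, and 1.82% of all genes were called and higher. Eda2r and Pmaip1 came to 0.34 ± 0.132 and 0.32 ± 0.112 at 24 h, short of the threshold, with adjusted p-values of 0.181 and 0.15. All 10 estimates were then above 0 at both times, with medians over the members of 0.43 at 6 h and 0.35 at 24 h. At 6 h the corrected estimate was 0.29 ± 0.108 for Bbc3 and 0.11 ± 0.0773 for Bax.

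**Figure D3:**
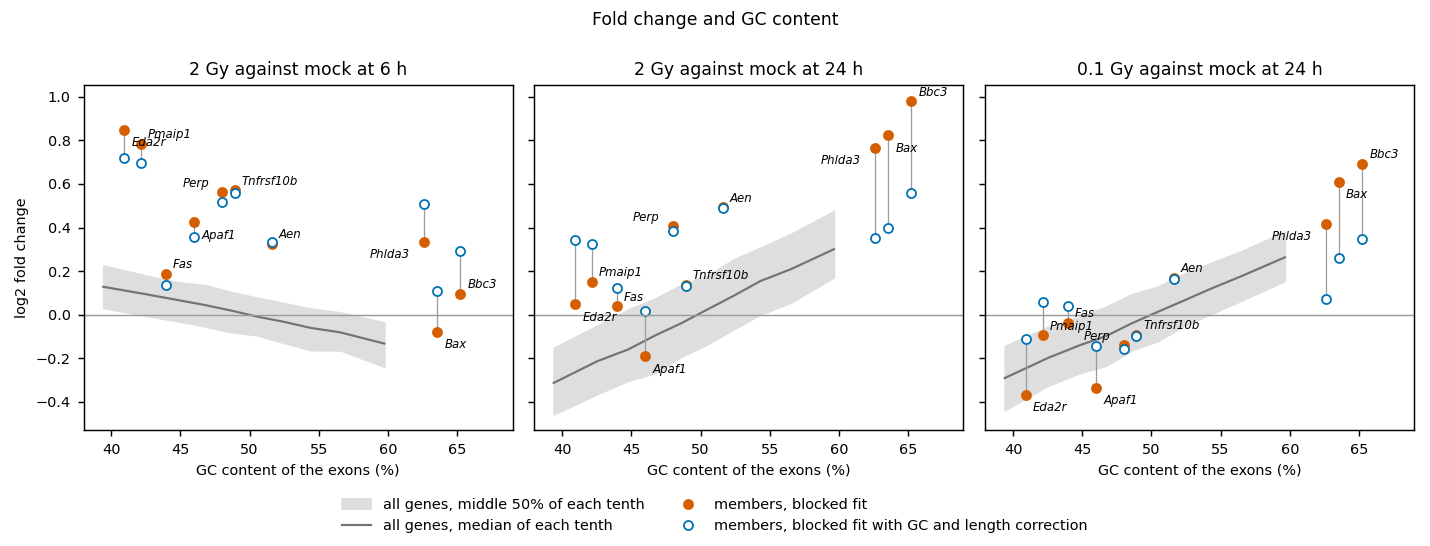
Log2 fold change against GC content for the members before (filled) and after (open) correction for GC content and length. The line is the median and the band the middle 50% of all genes tested, in 10 bins of GC content. GC content is that of the exons of each gene's longest annotated transcript. At 24 h the GC-rich members Bbc3, Bax and Phlda3 lie far above 0 before correction and move down to 0.56, 0.40 and 0.35 after 2 Gy.

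Whether the response to 2 Gy differed between the times was tested as the 24 h log2 fold change minus the 6 h one. In the blocked fit 3 members passed: Bax with a difference of 0.91 ± 0.225 (edgeR adjusted p = 0.0408), Pmaip1 with -0.63 ± 0.152 (0.0405) and Eda2r with -0.79 ± 0.222 (0.0498). Bax was thus higher relative to mock at 24 h than at 6 h, and Pmaip1 and Eda2r lower. Mock levels also moved between 6 h and 24 h. The group mean of Bax went from 121 to 83.7 CPM in mock and from 114 to 150 CPM after 2 Gy. For Eda2r it went from 46.5 to 67.5 CPM in mock and from 78.5 to 73.7 CPM after 2 Gy. For Pmaip1 it went from 50.8 to 47.1 CPM in mock and from 83.0 to 52.5 CPM after 2 Gy. Over all genes 3.55% were called with a positive difference and 3.23% with a negative one. Tnfrsf10b came to -0.43 ± 0.131 (0.0589) and Bbc3 to 0.89 ± 0.279 (0.0616), short of the threshold. After the correction for GC content and length no member was called, although 2.38% of all genes were, and 4 members had an unadjusted p under 0.05, as had 20.9% of all genes. The differences of Bax, Pmaip1 and Eda2r were then 0.31 ± 0.122 (adjusted p = 0.170), -0.38 ± 0.154 (0.185) and -0.37 ± 0.174 (0.241). Tnfrsf10b hardly moved, at -0.44 ± 0.115, with the lowest edgeR adjusted p among the members (0.0609). Leaving out replicate 3 raised the number of members called in the blocked fit to 6 when it was left out at 6 h, as 15.5% of all genes were called, and to 5 at 24 h, with 13.3% of all genes. Leaving out any other replicate lowered it to 0, in fits that called 0 to 170 of all genes.

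At 0.1 Gy and 6 h no member and no gene was called in either fit (0% of 16020 genes), and at an unadjusted p under 0.05 the blocked fit counted 1 member higher, Eda2r, and 1 lower, Bax, and 3.97% of all genes in either direction. Eda2r had 52.7, 95, 33.8 and 34.1 CPM, each above its own mock library, with a log2 fold change of 0.29 ± 0.0867 (edgeR adjusted p = 0.885). Bax had 109.6, 122, 85.0 and 106 CPM, each below its own mock library, with a log2 fold change of -0.18 ± 0.0759 (adjusted p = 0.885). Aen and Eda2r were higher in 4 of 4 pairs, as were 7.57% of all genes, and Bax lower, as were 6.65%. For the other members the bounds of the 95% intervals lay between -0.28 and 0.34.

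At 24 h after 0.1 Gy, 5 members passed the test in the blocked fit and went in both directions. Bax rose by 0.61 ± 0.131 (edgeR adjusted p = 0.0277), with 82.0, 139, 146 and 137 CPM after 0.1 Gy, and Bbc3 by 0.69 ± 0.146 (0.0262), with 13.1, 28.9, 28.7 and 29.6 CPM. Phlda3 rose by 0.42 ± 0.113 (0.0444), with 116, 224, 183 and 177 CPM. Each of these 3 genes was higher in 4 of 4 pairs, and each pair of groups overlapped. Eda2r fell, to 57.5, 94.3, 25.4 and 35.2 CPM, with a log2 fold change of -0.37 ± 0.0882 (0.0327), and Apaf1 fell, to 49.2, 67.1, 23.8 and 32.4 CPM, with one of -0.34 ± 0.0950 (0.0485). Over all 16183 genes 2.34% were called higher and 4.5% lower. By pairs alone, 3 members were higher and 4 lower in 4 of 4, against 16.3% and 16.2% of all genes.

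None of these 5 calls at 0.1 Gy held after the correction for GC content and length, when 1.89% of all genes were called and 2 members, Bax and Bbc3, were higher at an unadjusted p under 0.05, as were 9.93% of all genes. Bax then came to 0.26 ± 0.0693 (edgeR adjusted p = 0.0591), Bbc3 to 0.35 ± 0.0889 (0.0528), Phlda3 to 0.07 ± 0.0661 (0.620), Apaf1 to -0.15 ± 0.0785 (0.355) and Eda2r to -0.11 ± 0.0765 (0.478). The blocked fit called 4 members without replicate 1 (7.18% of all genes) and 5 without replicate 3 (23.2%). Without replicate 2 (0.13%) and without replicate 4 (0.0987%) no member was called, and neither was one in the edgeR fit of all 24 libraries with the block, where the lowest adjusted p was 0.0542 and 0% of all genes were called. Over 26 settings the adjusted p ran from 0.000985 to 1.00 for Bax and from 0.00111 to 1.00 for Bbc3. The oligodendrocyte lineage marker sum was higher in 4 of 4 pairs here too, by 0.34 log2 units on average, with sums of 575 to 898 CPM after 0.1 Gy. The microglia sum was higher in 3 of 4 pairs, by 0.17 on average, and the neuron sum was lower in 4 of 4, with a mean difference of -0.15 log2 units. Neuron sums were 460 to 728 CPM in mock and 458 to 607 CPM after 0.1 Gy over 10 genes, of which 0 were at 0 in all libraries and 3 were under 1 CPM throughout. The part of these markers in the members' changes was not tested.

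**Figure D4:**
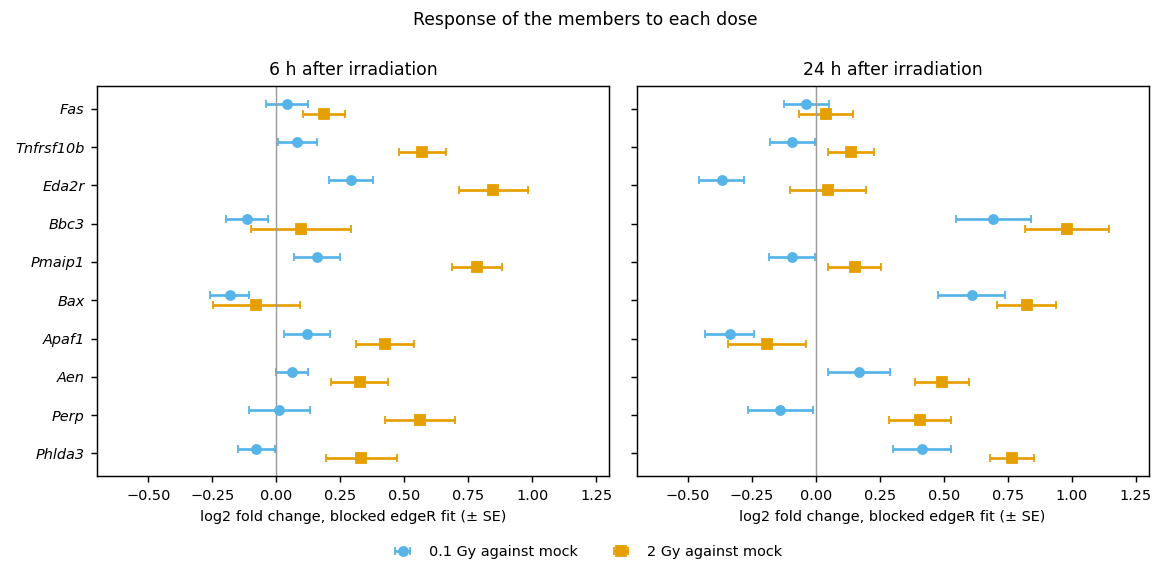
Blocked edgeR log2 fold change and standard error of each member for 0.1 Gy (circles) and 2 Gy (squares) against mock, at 6 h (left) and 24 h (right); the doses share the mock libraries. At 6 h the 0.1 Gy estimates lie between -0.18 and 0.29, and at 24 h those of Bax and Bbc3 are 0.61 and 0.69.

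Set against 0.1 Gy directly, 2 Gy gave higher estimates for all 10 members at both times, from 0.10 to 0.63 at 6 h and from 0.07 to 0.54 at 24 h on the log2 scale. No member passed in the blocked fit, in which 0.0553% of 16278 genes did at 6 h and 0% of 16002 at 24 h. The unadjusted p was under 0.05 for 7 members at 6 h, all higher, against 2.69% of all genes, and for 6 at 24 h, all higher, against 2.34%. The nearest were Eda2r at 6 h with 0.56 ± 0.0855 (edgeR adjusted p = 0.0616), Tnfrsf10b with 0.49 ± 0.0782 (0.0653) and Pmaip1 with 0.63 ± 0.111 (0.0911). After the GC and length correction Eda2r, Tnfrsf10b, Phlda3, Pmaip1 and Apaf1 were called higher at 6 h, as were 0.51% of all genes. Higher in 4 of 4 pairs were 5 members at 6 h, against 6.63% of all genes, and 4 at 24 h, against 5.6%. At 24 h the adjusted p was lowest for Perp, at 0.54 ± 0.125 (0.270).

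In mock-irradiated cells none of the members was called between 24 h and 6 h, while 6.7% of 15887 genes were, and no member had an unadjusted p under 0.05 in that unpaired edgeR fit. Bax had a log2 fold change of -0.55 ± 0.256 at 24 h (adjusted p = 0.224), and Eda2r differed by 0.52 ± 0.504 (0.564). Leaving out the 24 h library of replicate 3, whose Bax level of 130.1 CPM was far above the others, led to a call for Bax, in a fit that called 18.6% of all genes. Same-numbered mock libraries of the times had correlated deviations of 0.378, 0.80, 0.0887 and 0.493 for replicates 1 to 4. With the block, which here paired the times by replicate number, 15.3% of all genes were called. Eda2r was the 1 member called, with a log2 fold change of 0.58 ± 0.169 (edgeR adjusted p = 0.0422). DESeq2 (18.6% of all genes) and voom (15.4%) with the block also called Eda2r alone among the members, and the GC and length correction called Phlda3 instead (26.6%), with Eda2r at 0.34 ± 0.125 (0.0629).

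Other genes of the pathway were tested in the same fits. Among 26 other p53 targets and regulators, none was called at 6 h after 2 Gy in the blocked fit, while 14 were higher and 0 lower at an unadjusted p under 0.05, against 3.55% of all genes higher, and the median log2 fold change was 0.34. Cdkn1a, the cell cycle inhibitor p21, came to 0.67 ± 0.102 (edgeR adjusted p = 0.141) and Mdm2, which targets p53 for degradation, to 0.66 ± 0.0945 (0.141). Trp53 itself had a group mean of 101 CPM in mock at 6 h and an edgeR adjusted p of 0.998. After the GC and length correction 10 of the 26 were called higher, against 0.581% of all genes, and 0 lower, the 3 with the smallest p being Dcxr at 0.98, Trp53inp1 at 0.84 and Cdkn1a at 0.74.

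At 24 h after 2 Gy, 8 of the 26 rose and 0 fell in the blocked fit, against 6.53% and 6.69% of all genes, with a median of 0.16. Dcxr, a carbonyl reductase gene, rose by 0.98 ± 0.102 (edgeR adjusted p = 0.00248), Cdkn1a by 0.57 ± 0.0845 (0.00929) and Pidd1, a platform for caspase-2 activation, by 0.52 ± 0.102 (0.0187). After the GC and length correction 4 of the 26 were called, all higher, when 1.82% of all genes were: Dcxr at 0.60, Cdkn1a at 0.37, Ei24 at 0.33 and Mdm4 at 0.41. Pidd1 then came to 0.32 ± 0.0808 (edgeR adjusted p = 0.0655). Mdm2 was near mock, at -0.09 ± 0.119, and its response differed between the times by -0.75 ± 0.165 in the blocked fit (adjusted p = 0.0383) and by -0.57 ± 0.133 with the GC and length correction (0.0452). The unpaired fit of this difference called 0 genes (edgeR adjusted p = 0.819 for Mdm2), and so did the blocked fit without replicate 1 at 24 h or without replicate 2 at either time. With 0.1 Gy at 24 h, Dcxr rose by 0.39 ± 0.105 (0.0438) and Trp53inp1 fell, with a log2 fold change of -0.47 ± 0.0915 (0.0262). Neither call held after the GC and length correction, with values of 0.07 and -0.16 (edgeR adjusted p = 0.722 and 0.209).

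The partners of the members in the mitochondrial route include other BCL2 family genes and caspases. Of 21 genes of the BCL2 family and the mitochondrial route tested at 6 h after 2 Gy, 0 were called by edgeR with the block, 2 were higher and 2 lower at an unadjusted p under 0.05 (6.88% of all genes in either direction), and the median was -0.04. Of 20 tested at 24 h, 1 rose and 2 fell, near the shares of all genes (6.53% and 6.69%): Bad, a BH3-only gene, by 0.50 ± 0.106 (adjusted p = 0.0227), and Birc5 (survivin) and Casp2, with log2 fold changes of -0.97 ± 0.119 (0.00402) and -0.43 ± 0.103 (0.0316). After the GC and length correction, which left 1.69% of all genes called lower, Birc5 alone of these was called, at -0.92 ± 0.107 (edgeR adjusted p = 0.00388), while Bad came to 0.22 ± 0.0834 (0.181) and Casp2 to -0.30 ± 0.0916 (0.108). After 0.1 Gy and 24 h only Xiap, an inhibitor of caspases, was called, with a log2 fold change of -0.41 ± 0.101 (0.0356). Of 11 genes of the death receptor route tested after 2 Gy, 0 were called at either time. At an unadjusted p under 0.05, 0 were counted at 6 h, against 6.88% of all genes, and 2 higher and 3 lower at 24 h, against 32.3% in either direction, and the medians were 0.05 and -0.14. Tradd, an adaptor of receptor signalling, was the 1 gene of 12 called at 24 h after 0.1 Gy, at 0.44 ± 0.121 (0.0447). Over all genes 2.34% were called higher and 4.5% lower in that comparison. The calls of Xiap and Tradd were lost with the GC and length correction (edgeR adjusted p = 0.982 and 0.348).

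The members' profiles over the 24 libraries were compared after the mean of each time and replicate number had been removed. Pmaip1 and Tnfrsf10b had a Pearson r of 0.96, Bax and Bbc3 of 0.95 and Aen and Phlda3 of 0.93, whereas Bax and Apaf1 had one of -0.57. The libraries share mock controls, depth and base composition effects, so these are descriptions without a test. The genes whose profile was most like the mean of the members were Cdkn1a (r = 0.973), Pidd1 (0.959), Sesn2 (0.949), Ei24 (0.938) and Inka2 (0.935). For single members the nearest gene was H2afj for Bax (0.983), Ak1 for Bbc3 (0.959), Golga7 for Fas (0.921), Utp20 for Apaf1 (0.951), Btg2 for Aen (0.948), Ei24 for Perp (0.875), Rprm for Phlda3 (0.97) and Trp53inp1 for Eda2r (0.957), while Pmaip1 and Tnfrsf10b (0.958) were nearest to each other.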

How the data were processed

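Poly(A) mRNA of the 24 libraries was sequenced by a company. The authors deposited raw read counts per Ensembl gene, aligned to mm10 per the submitters' processing notes; the aligner, the counter and the strand setting are not given in the sources used here. The members and gene lists were chosen with earlier results of these data known.

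Genes were kept by edgeR's filterByExpr, scaled by TMM and tested by the quasi-likelihood F test (edgeR 4.0.16, R 4.3.3) over the libraries of each comparison, with Benjamini-Hochberg adjustment and a threshold of 0.05. SE is the absolute log2 fold change divided by the root of F, and 95% intervals are 1.96 SE, which is narrow for so few libraries. CPM are TMM-scaled. The replicate number was used as a block in a further fit, the pairing being taken from the labels. Deviations of same-numbered libraries from their group means correlated by 0.514 to 0.912 over the 6 dose comparisons within a time. Those of mock between times correlated by 0.378, 0.80, 0.0887 and 0.493 for replicates 1 to 4. In the blocked fits that compare doses, the block was the number within a time, which does not pair the times. In the blocked fits of mock between times the block was the number alone, which pairs them. The labels do not state that a number marks the same culture at both times. The GC and length correction entered natural splines with 5 degrees of freedom as offsets. DESeq2 1.42.0 and limma 3.58.1 (voom) served as alternatives. The fits were also run on simulated counts with the same dispersion for every gene and no trend of fold change with GC content. That run cannot show how they perform under the spread and the GC trend of these libraries. Named genes are all 10 members, their ligands, Trp53, Mdm2 and Cdkn1a, the 3 genes of smallest p in each direction among the called genes of a list, and the genes of highest Pearson r with the members. The lowest count of a member was 46, for Perp, so counting error is not negligible for that gene. The other members had at least 207 counts in each library. P-values measure the spread between repeats in the unpaired fit and that of differences within pairs in the blocked fit. Reads of Bax could be shared with Gm45808, which overlaps it by 192 exon bases and had 3 counts in total.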

Additional observations from a re-analysis of the deposited data

Results flagged for a closer look

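In 11 of 60 sets of 4 libraries of one member and group, a library lay far from the others by Dixon's ratio, the gap to the nearest library over the whole range; chance marks about 1 in 20 such sets. In 9 of the 11 the library was that of replicate 2. The ratio for Perp was 0.88, 0.853 and 0.83 at 0, 0.1 and 2 Gy after 6 h and 0.879, 0.914 and 0.884 after 24 h, replicate 2 being the highest each time. For Pmaip1 it was 0.837 in mock at 6 h, 0.888 in mock at 24 h and 0.879 at 0.1 Gy and 24 h, again with replicate 2 highest. At 24 h after 0.1 Gy the library of replicate 1 was the low one for Bax (0.855; 82.0 CPM, the nearest at 137 CPM) and for Bbc3 (0.944; 13.1 CPM, the nearest at 28.7 CPM).

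The response to 2 Gy differed between the times for Bax, Pmaip1 and Eda2r in the blocked edgeR fit, by 0.91, -0.63 and -0.79 on the log2 scale. With the GC and length correction the differences were 0.31, -0.38 and -0.37 and none was called (edgeR adjusted p = 0.170, 0.185 and 0.241), and without replicate 1, 2 or 4 at either time 0 members were called, in fits that called 0 to 170 of all genes. At 0.1 Gy, Bax was lower in 4 of 4 pairs at 6 h and higher in 4 of 4 at 24 h, and Eda2r was higher in 4 of 4 at 6 h and in 0 of 4 at 24 h; this difference between times was not tested.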

How the results depend on the processing

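Against the unpaired edgeR fit, which called 0 members, so that no call could be lost, 1030 fold changes of members were refitted under other tests, scalings, filters and pairings; 939 kept their direction and side of the threshold or stayed within 1 SE of an uncalled value, 88 were newly called and 3 reversed; of 1080 with a library or replicate number left out, 1015, 47 and 18 did. In 110 cases in all the sign changed within 1 SE of an uncalled value. All 60 group means of CPM moved by less than 1 SD with library size in place of TMM. The cause of the changes was not tested. The alternative of library size with the block was added after seeing the data.

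The unpaired edgeR test called 0 members in each comparison. With the replicate block it called 4 for 2 Gy at 24 h (13.2% of all genes), 5 for 0.1 Gy at 24 h (6.84%), 3 for the difference between times (6.78%) and 1 in mock between times (15.3%). DESeq2 with the block called 3 for 2 Gy at 6 h (0.48%), 4 for 2 Gy at 24 h (17%), 5 for 0.1 Gy at 24 h (14.7%), 3 for 2 against 0.1 Gy at 6 h (0.325%), 6 for the difference between times (19.4%) and 1 in mock (18.6%). Voom with the block gave 4 (12%), 4 (5.57%), 2 (4.76%) and 1 (15.4%) for 2 Gy at 24 h, 0.1 Gy at 24 h, the difference and mock, and library size with the block 5 (13.8%), 3 (11.1%), 3 (7.41%) and 1 (14.4%). The GC and length correction gave 5 for 2 Gy at 6 h (0.719%), 4 at 24 h (3.51%), 5 for 2 against 0.1 Gy at 6 h (0.633%) and 1 in mock (26.6%). All 24 libraries with the block gave 3 for 2 Gy at 6 h (0.449%), 5 at 24 h (19.7%), 0 for 0.1 Gy at 24 h (0%), 2 for 2 against 0.1 Gy at 6 h (0.127%) and 6 for the difference (15.9%).

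With the block and without replicate 1, 2, 3 or 4, the count was 2, 1, 7 or 3 for 2 Gy at 24 h. The share of all genes called was 0.892%, 0.432%, 33.1% and 1.54%. The member count was 4 for 0.1 Gy at 24 h without replicate 1 (7.18% of all genes) and 5 without replicate 3 (23.2%), and 3 without replicate 4 for 2 Gy at 6 h against mock (0.799%) as well as against 0.1 Gy (0.275%). Without replicate 3 it was 1 for 2 against 0.1 Gy at 24 h, where 161 genes were called, 6 (left out at 6 h, 15.5%) or 5 (at 24 h, 13.3%) for the difference, and 6 in mock between times (45.4%). In the unpaired fit the count in mock ran from 0 to 1 with a library left out, the 1 being Bax without replicate 3 at 24 h (18.6% of all genes, against 1.04 to 5.74% with another library left out).

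Reversed under the GC and length correction were Phlda3 for the difference between times (-0.14) and, in mock between times, Bbc3 (0.25) and Phlda3 (0.36, called). Bax for 2 Gy at 6 h was 0.13 with the block and without replicate 4. With a library left out of the unpaired fit, Perp ran from -0.74 to 1.88 (2 Gy, 6 h), -1.13 to 1.87 (2 Gy, 24 h), -1.36 to 1.39 (0.1 Gy, 6 h), -1.76 to 1.43 (0.1 Gy, 24 h), -0.63 to 1.74 and -0.99 to 2.07 (2 against 0.1 Gy, 6 h and 24 h), -1.58 to 1.49 (difference) and -1.36 to 1.68 (mock). Pmaip1 ran from -0.49 to 0.85 (2 Gy, 24 h), -0.41 to 0.73 (0.1 Gy, 6 h), -0.79 to 0.61 (0.1 Gy, 24 h), -0.42 to 0.96 (2 against 0.1 Gy, 24 h) and -0.78 to 0.51 (mock). At 24 h after 0.1 Gy Tnfrsf10b ran from -0.42 to 0.25 and Aen from -0.072 to 0.35, Bax for 2 against 0.1 Gy at 24 h from -0.083 to 0.39, and Phlda3 in mock from -0.25 to 0.18. Except for Bax, these reversals in the unpaired fit came from leaving out a replicate 2 library.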
